A study of Mus musculus with 22 samples.

Results

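Single ganglion cells of the embryonic mouse retina were compared between embryonic day 12.5 (E12.5) and embryonic day 15.5 (E15.5). The members were taken from the labels by cell type and stage: cells E4, F3 and F6 of E12.5, and cells B1, B5 and C7 of E15.5. These are 6 of the 13 ganglion cells and of the 22 single retinal cells in the series. Each cell was picked from a papain-dissociated retina, its RNA was reverse transcribed with oligo dT, and the product went through 35 PCR cycles before hybridisation to an Affymetrix mouse expression array. The labels give the CD1 strain for E4, F3, F6 and B1 and name none for B5 and C7. No genotype change, drug or other treatment is named for any of the 6 cells. They were recognised as ganglion cells only after profiling, per the series' design text, so the presence of ganglion cell markers is not independent evidence of their type. No animal or litter is named, so the cells of a stage may come from 1 animal, and the comparison sets 1 stage sample against 1 with no p-value.

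Ganglion cells are the output neurons of the retina and among the first retinal neurons to be born. A newly born ganglion cell leaves the cell cycle, switches on transcription factors of the Brn3, Islet and Ebf families, and sends an axon along the inner retinal surface to the optic nerve head. Over the following days axons cross or avoid the optic chiasm and grow toward the brain, while dendrites and synapses form later. The step studied here lies within the period of axon outgrowth.

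Signals were raised to a floor of 200 and put on the log2 scale, where the floor is 7.64, and a gene counts as detected in a cell at a signal of at least 1000 (9.97). All levels below are log2 signals of single cells, and all differences are the E15.5 mean minus the E12.5 mean on that scale. Of 18193 genes with a probe set of a single symbol, 7183 were detected in at least 3 of the 22 cells. Of these, 4 globin genes were set aside, which left 7179 compared genes. A gene is called higher when every E15.5 cell lay above every E12.5 cell and the means differed by at least 2, which is 4-fold, and lower in the mirrored case. Where all 3 cells of a stage sat at the floor, a difference is a lower bound that depends on the floor.

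The number of detected genes was 2652, 3493 and 3608 in E4, F3 and F6, against 2475, 2465 and 1517 in B1, B5 and C7. The mean was 3251 ± 521.9 (SD, n = 3 cells) at E12.5 and 2152 ± 550.2 (SD, n = 3 cells) at E15.5. Every E15.5 cell had fewer detected genes than every E12.5 cell, and C7 had the fewest of all 22 cells, whose range ran up to 4351. The deposited scale sets the trimmed mean of each array to 500, so a signal is relative to the rest of its own array. Of 70 genes detected in all 16 other cells of the series, 55 had a positive difference, with a median of 0.96 and quartiles of 0.17 and 1.48. A difference near 1 in an abundant gene is therefore the level of these 70 genes, and values after rescaling each cell to them are given below as the rescaled difference. The Spearman correlation over compared genes was 0.352 to 0.408 within E12.5, 0.228 to 0.284 within E15.5 and 0.225 to 0.333 between the stages. Cells of E15.5 resembled each other less than cells of E12.5 did.

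At E15.5, 109 genes (1.52% of those compared) were called higher and 397 (5.53%) were called lower. The higher genes were 21.5% of all calls. They were 33.7% after quantile normalization, with 173 higher and 340 lower, and 9.89% after rescaling to the 70 genes, with 61 higher and 556 lower. Without C7 the counts were 366 higher and 455 lower, or 44.6% higher, and on leaving out any other cell the share was 12.8% to 30.1%. With 1 cell fewer, the rule of no overlap is easier to meet, and the total of calls rose from 506 to between 780 and 952. All 61 genes called higher after rescaling were among the 109, and 395 of the 397 lower genes kept their call. Rescaling multiplied the E12.5 cells by 1.17 to 1.44 and the E15.5 cells by 0.81 to 0.84. It thus lowers most differences, so this overlap follows largely from the shift and is no separate support for the calls. Without regard to size, the cells of the stages did not overlap for 215 genes (2.99%) that were higher and 431 (6.0%) that were lower. The median difference of all compared genes was -0.32, with 2549 positive, 4036 negative and 594 at the floor in all 6 cells.

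The lower genes were mostly undetected at E15.5. Of the 397, 282 were detected in all 3 E12.5 cells and 306 in no E15.5 cell, and 189 sat at the floor in every E15.5 cell. The call asks for lower values in every E15.5 cell, so these counts partly restate it. Of all 7179 compared genes, 1222 were detected in all 3 E12.5 cells and 339 in all 6 cells. In the E15.5 cells, 502 of them were detected in all 3 and 3519 in 1 or 2. In 3 of the 397 the transcript was detected in all 6 cells. Of the 109 higher genes, 19 were at the floor in every E12.5 cell and 26 were detected in all 6 cells. Fewer detected genes in the E15.5 cells moved with the excess of lower calls, and their part in it was not tested.

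**Figure D1:**
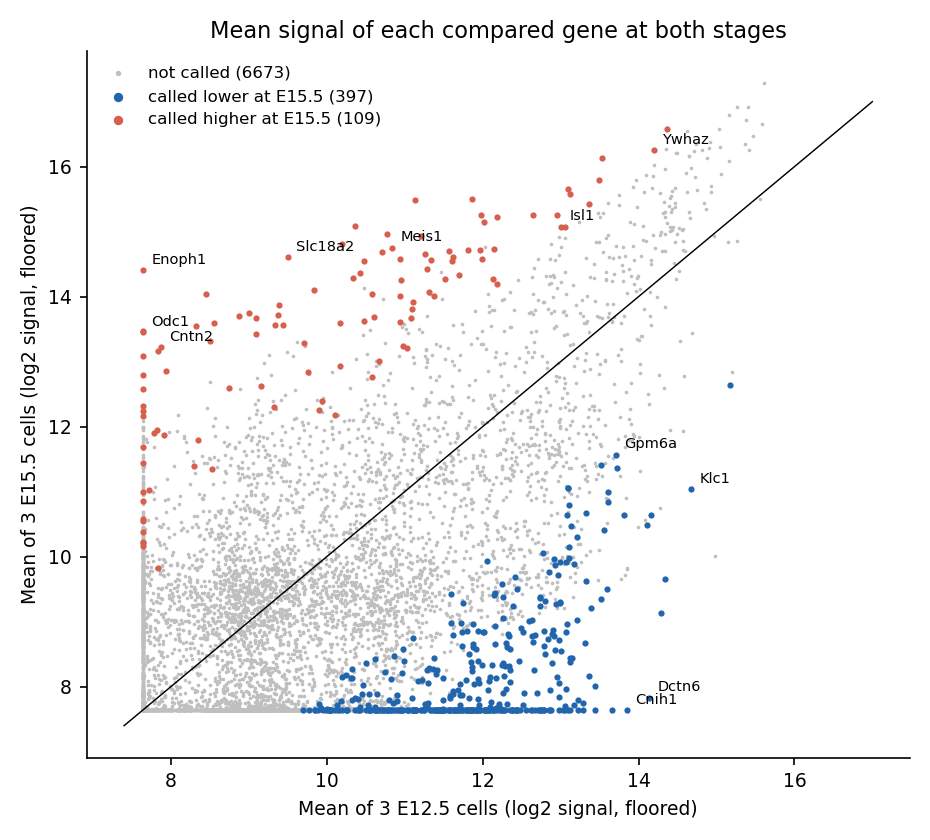
Mean log2 signal (floored at 7.64) of the 3 E12.5 cells on the horizontal axis against that of the 3 E15.5 cells on the vertical axis, 1 point per compared gene, with the line of equality. The 397 genes called lower (blue) gather along the floor of the vertical axis, and the 109 called higher (red) lie across the range, with the brightest genes at the upper right mostly above the line.

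The 12 genes with the largest differences toward E15.5 are given first. Enoph1, an enzyme of the methionine salvage pathway, was at the floor in all E12.5 cells and at 13.997, 14.39 and 14.86 in B1, B5 and C7, a difference of at least 6.77. Both of its probe sets gave a large difference, 5.96 and 6.77. Odc1, the rate-limiting enzyme of polyamine synthesis, was at the floor in all E12.5 cells and at 15.10, 10.22 and 15.06 in the E15.5 cells, a difference of at least 5.82. For both genes the stages were fully separate, although B5 held far less Odc1 than B1 and C7.

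Slc18a2, the vesicular monoamine transporter, read 7.64, 7.74 and 13.11 in E4, F3 and F6, and 13.95, 14.11 and 15.76 in B1, B5 and C7, a difference of 5.11. The E12.5 cell F6 thus already held the transcript, at a level not far below B1. Kdm1a, a histone demethylase, was at 7.64, 7.64 and 8.23 at E12.5 and at 11.96, 13.27 and 14.25 at E15.5, a difference of 5.32. Ndrg4 was at the floor at E12.5 and at 13.41, 12.16 and 13.71 at E15.5, a difference of at least 5.45. Kdm1a and Ndrg4 were detected in every E15.5 cell and in no E12.5 cell.

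The other genes among the 12 largest were Ankrd40, with a difference of at least 5.83, Zfp410 with 5.58, Cntn2 with 5.35, Megf9 with 5.22, Oxr1 with at least 5.16, Tsr1 with 5.04 and Tchp with at least 4.94. Zfp410 encodes a zinc finger protein, Oxr1 a protein of oxidative stress resistance, and Tsr1 a factor of ribosome maturation. Probe sets of a gene did not always move together: the lowest difference among the probe sets was 0.00 for Odc1, Ankrd40, Zfp410 and Megf9, 0.03 for Oxr1 and 0.13 for Cntn2. Enoph1, Kdm1a, Ndrg4 and Tsr1 had 2 probe sets each, all with a difference of at least 3.62. After rescaling, 11 of the 12 kept their call, with Tsr1 (rescaled difference 4.63) the exception, since B1 and F6 then overlapped.

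The 12 genes with the largest differences toward E12.5 were detected in no E15.5 cell. Dctn6, a subunit of the dynein activator dynactin, was at 14.58, 13.91 and 13.92 in E4, F3 and F6 and at 7.64, 7.82 and 8.03 in B1, B5 and C7, a difference of -6.31. Cnih1, a cargo receptor of the endoplasmic reticulum, was at 14.33, 13.44 and 13.78 at E12.5 and at the floor in all E15.5 cells, a difference of -6.20 or beyond. Rac1, a small GTPase of the actin cytoskeleton, was at 13.61, 12.86 and 13.22 at E12.5 and at the floor at E15.5, a difference of -5.58 or beyond. The E12.5 cells were close to each other for all 3 genes, and no E15.5 cell reached the detection level.

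The remaining members of the 12 were Spag7 with -6.01, Rangap1, which activates the Ran GTPase, with -5.80, Cops5, the catalytic subunit of the COP9 signalosome, with -5.64, Coro7 with -5.54, the RNA 3′ processing factor Cpsf6 with -5.48, Ubl5 with -5.46, the phosphatase Ptpn12 with -5.45, the splicing factor Phf5a with -5.44 and Cox8a, a subunit of cytochrome c oxidase, with -5.43. None of them was detected in an E15.5 cell, and each was detected in all E12.5 cells. All 12 stayed called lower after rescaling and after quantile normalization. Rescaling lowers most differences and so favours such calls. Other probe sets of Rac1, Cpsf6, Coro7 and Ubl5 included one with a difference of 0.00, and one of Rangap1 had 0.37.

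**Figure D2:**
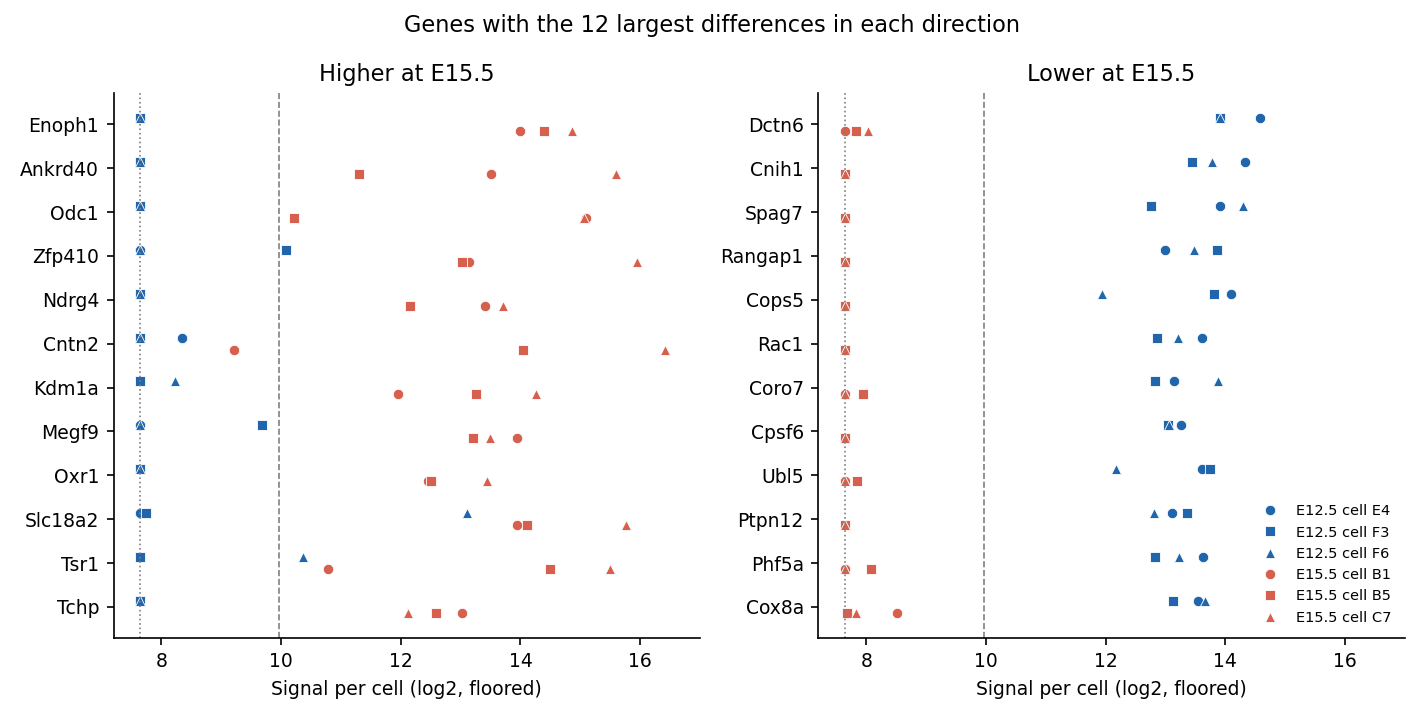
Log2 signal (floored) in each of the 6 cells for the 12 genes with the largest difference in each direction; blue marks are E12.5 cells and red marks E15.5 cells, the dotted line is the floor (7.64) and the dashed line the detection level (9.97). The lower genes lie between 11.94 and 14.58 at E12.5 and at or near the floor at E15.5, while the higher genes are more spread among the E15.5 cells, as for Cntn2 (9.22 to 16.41).

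Markers of ganglion cells were checked next. Of 20 measured members, 16 passed the filter and were compared. Among the rest, Thy1, Nefh and Chrnb3 were at the floor in all 6 cells, and Isl2 was in F3 alone (11.54). Of the 16, 8 were detected in all 6 cells, against 339 of all 7179 compared genes. Of the compared members 1, Isl1, was called higher and none lower. There were 9 positive and 6 negative differences and a median of 0.24 (all compared genes -0.32). Sncg, gamma-synuclein, was at 15.34, 15.33 and 15.13 in E4, F3 and F6 and at 15.21, 15.21 and 14.16 in B1, B5 and C7. Ebf3, a helix-loop-helix factor of ganglion and amacrine cells, was at 14.84, 14.63 and 14.31 and then at 15.04, 15.21 and 13.88. Both were detected in every cell, and the stages overlapped.

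Gap43, the growth cone protein, was at 14.17, 14.91 and 14.12 at E12.5 and at 15.17, 14.84 and 15.21 at E15.5, a difference of 0.67 and a rescaled one of 0.02. Stmn2, which destabilises microtubules in growing axons, differed by 0.61, or -0.05 after rescaling. The neurofilament genes went further: Nefl was at 13.60, 12.61 and 12.82 at E12.5 and at 14.61, 14.36 and 15.34 at E15.5. Nefm was at 14.92, 15.01 and 14.01 and then at 15.78, 16.16 and 16.58. The stages did not overlap for either, and the differences of 1.76 and 1.53, below the size needed for a call, were 1.10 and 0.87 after rescaling and 1.29 and 0.35 after quantile normalization.

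Slc17a6, the vesicular glutamate transporter of ganglion cells, lay the other way. It was at 13.43, 12.89 and 13.26 in the E12.5 cells and at 10.49, 11.995 and 12.08 in the E15.5 cells, a difference of -1.67 without overlap. Elavl4, a neuronal RNA-binding protein, was at 13.56, 14.17 and 13.38 and then at 13.503, 13.97 and 9.68, so that C7 alone was low. These values are of 1 probe set, and the 3 probe sets of Elavl4 had differences from -1.32 to 1.89. Rbpms, another RNA-binding protein of ganglion cells, was at 11.95, 12.70 and 13.10 and then at 13.43, 7.64 and 12.58, with B5 alone at the floor. Nrn1 was at the floor in E4 and B5 and between 12.41 and 15.13 in the other 4 cells.

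Pou4f1, the Brn3a factor, separated cells within a stage rather than the stages. It was at 7.64, 14.34 and 9.16 in E4, F3 and F6 and at 7.64, 11.28 and 7.64 in B1, B5 and C7, so 1 cell of each stage held it. Pou4f3 was detected in F3 alone, at 11.32, the cell with the highest Pou4f1. Chrna6, a nicotinic receptor subunit, was at the floor in all 6 cells and reached 12.78 in 1 of the P0 cells. Ebf1 was at 11.27, 13.30 and 7.64 in E4, F3 and F6 and at 13.02, 12.64 and 7.64 in B1, B5 and C7. Its probe sets ran from -2.76 to 2.82. Eya2 was at the floor in E4 and B1 and between 10.63 and 13.62 in the other cells. Pou4f2 was not analysed here.

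Transcription factors showed 2 members called higher and 6 called lower among 45 compared, against 1.52% and 5.53% of all compared genes, which are the background for the counts of every list. The differences were positive for 18 and negative for 27, with a median of -0.25 (all compared genes -0.32). Isl1, a LIM homeodomain factor needed for ganglion cell differentiation, was at 12.40, 12.97 and 13.65 in E4, F3 and F6 and at 13.88, 15.31 and 16.04 in B1, B5 and C7, a difference of 2.07. The call rests on its brighter probe set, since the other one had -0.42, and the rescaled difference of 1.41 fell short of a call, as did 1.76 without E4, 1.95 without B5 and 1.58 without C7. Meis1, a TALE homeodomain factor, was at 7.64, 11.64 and 13.23 and then at 14.79, 14.33 and 15.13, a difference of 3.92 that remained called after rescaling. It was 2.32 without E4, and 1.31 as the mean over 3 probe sets, of which the lowest had 0.00. All E15.5 cells held Meis1 at a similar level, while the E12.5 cells ranged from the floor to 13.23.

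The lower factors were Scrt2, Rorb, Lmo1, Tcf4, Tshz2 and Myt1l. Scrt2, a zinc finger repressor of newborn neurons, was at 13.17, 11.41 and 13.02 at E12.5 and at 7.64, 7.93 and 8.13 at E15.5, a difference of -4.63. Rorb, an orphan nuclear receptor, was at 12.99, 10.39 and 11.69 and then at the floor, a difference of -4.05 or beyond. Lmo1, a LIM-only cofactor, was at 10.64, 12.13 and 12.15 and then at the floor, a difference of -3.99 or beyond. Tcf4, the partner of many proneural factors, was at 11.37, 11.13 and 10.91 and then at the floor. Myt1l was not called without F6, with a difference of -1.47. None of the 6 lower factors was detected in an E15.5 cell, and Scrt2, Rorb, Lmo1 and Tcf4 were detected in all E12.5 cells.

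Many other factors were present in some cells of a stage and not in others. The Iroquois genes are an example at E15.5: Irx3 was at 14.49 in B1 and at the floor in B5 and C7, while Irx2 was at 7.64, 11.34 and 14.63 in B1, B5 and C7. At E12.5 both were low in E4 (8.23 for Irx3 and 9.06 for Irx2) and between 12.22 and 13.29 in F3 and F6. C7 alone at E15.5 held Nr2f2 (14.93), Pbx3 (14.56), Bcl11b (14.25), Hmx1 (12.99) and Satb1 (12.42). Among the E15.5 cells, B1 alone held Tbx3 (13.63), Id4 (13.36), Dnmt3a (12.69) and Irx5 (12.42). Cell E4 was the E12.5 cell with Nr2f2 (12.84) and Barhl2 (13.22), and Zfhx4 was in F6 (13.37) and B5 (12.68). Barhl2 is also an amacrine cell factor. After rescaling another probe set of Bcl11b stood for the gene, with a difference of -0.28.

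**Figure D3:**
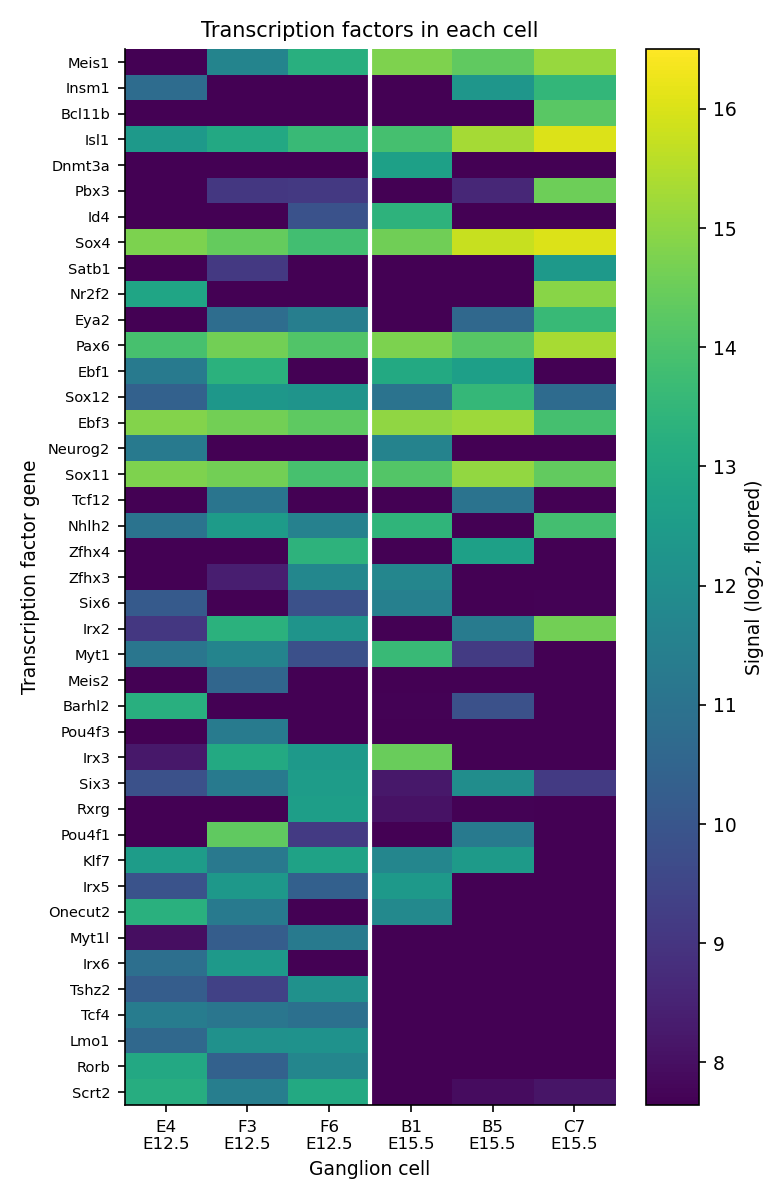
Log2 signal (colour, floored at 7.64) of the 41 transcription factor genes, of 45 compared, that were detected in at least 1 of the 6 cells, ordered by the difference between stages; columns are cells, with E12.5 left of the white line. Isl1 and Ebf3 fill every column, Meis1 is bright in all E15.5 columns, the 6 lower factors at the bottom are dark at E15.5, and most other rows change from cell to cell within a stage.

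Genes of neurogenesis and Notch signalling showed none called higher and 2 lower among 22 compared, with a median of 0.01. Hes6, a Hes family member that promotes differentiation, was at 12.80, 9.88 and 12.36 in E4, F3 and F6 and at 7.64, 8.56 and 7.64 in B1, B5 and C7, a difference of -3.73. Numbl, a relative of the Notch inhibitor Numb, was at 12.31, 11.55 and 10.51 and then at the floor, a difference of -3.81 or beyond. Cdkn1b, the cyclin-dependent kinase inhibitor p27, lay the other way without a call, at 8.54, 12.07 and 11.29 and then at 13.57, 13.31 and 11.93. Jag1, a Notch ligand, was in C7 alone, at 14.77. Among factors of early neurogenesis, Insm1 was in E4 (10.77), B5 (12.31) and C7 (13.51), and Neurog2 in E4 (11.30) and B1 (11.59).

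Progenitor and cell cycle genes had 1 member called higher and none lower among 18, with a median of 0.00. Ccnd1, cyclin D1, was at 12.65, 7.64 and 12.53 at E12.5 and at 12.89, 13.07 and 14.87 at E15.5, a difference of 2.67 and a rescaled one of 2.09, which was no longer a call. Without F3 the difference was 1.02. Mcm2, a subunit of the replicative helicase, was at the floor in every E12.5 cell and at 7.64, 13.53 and 15.32 in B1, B5 and C7. Ube2c, a ubiquitin-conjugating enzyme of mitosis, was at the floor in every E12.5 cell and at 7.64, 13.08 and 12.26 in the same cells. Hmgb2 was in B1 (12.33) and B5 (12.99) and no other of the 6 cells. Thus B5 and C7 carried Mcm2 and Ube2c, and B1 neither. Of 30 members measured, 8, 3 and 6 were detected in E4, F3 and F6 and 5, 10 and 7 in B1, B5 and C7. Among members that did not pass the filter, Mcm3 (11.88) and Mcm5 (12.50) were in E4 alone of the 6 cells. Prtg (12.34) and Nes (10.34) were in B5 alone, and Ccnd2 (13.53) in C7 alone. Sox2 and Top2a, chosen after their values were seen, were at the floor in all 6 cells and detected in both E14.5 ganglion cells.

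The axonal cytoskeleton and growth cone list was bright in every cell. Of 42 compared members, 2 were called higher and 2 lower, with 29 positive and 12 negative differences and a median of 0.84, which was 0.19 after rescaling. Between 36 and 39 members were detected in each E12.5 cell, 38 in B1 and in B5, and 31 in C7. Dpysl3, a collapsin response mediator, was at 12.72, 12.45 and 12.76 in E4, F3 and F6 and at 15.23, 15.09 and 15.43 in B1, B5 and C7, a difference of 2.60. Of its 3 probe sets the lowest had -3.43, and the mean over them gave -0.27, so the direction depends on the probe set. Marcks, a growth cone protein that binds actin and membranes, was at 13.49, 13.67 and 13.34 and then at 15.94, 15.38 and 16.08, a difference of 2.30, or 1.65 after rescaling.

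Gpm6a and Gpm6b, membrane glycoproteins of neuronal processes, were the lower members. Gpm6a was at 14.10, 13.20 and 13.84 at E12.5 and at 12.77, 10.45 and 11.48 at E15.5, a difference of -2.14, with -1.71 in its other probe set, and no call without E4 (-1.95) or B5 (-1.58). Gpm6b was at 13.90, 11.85 and 13.13 and then at 7.64, 9.17 and 7.64, a difference of -4.81, with 0.00 as the highest of its probe sets. Dclk1, a doublecortin-like kinase, had -3.83 but B1, at 12.33, overlapped the E12.5 cells. Its 9 probe sets ran from -3.83 to 3.35 with a mean of -0.10, so its direction also depends on the probe set. Dpysl5 was at the floor in C7 alone. Shtn1, shootin, was at the floor in all E12.5 cells and at 12.76, 11.27 and 7.64 in the E15.5 cells. Tuba1a, the alpha-tubulin of growing neurons, chosen after its values were seen, was at 15.68, 15.92 and 15.24 and then at 17.03, 17.10 and 17.74, a difference of 1.68 that lies above the upper quartile (1.48) of the 70 reference genes. The bright housekeeping genes Actb (1.61), Actg1 (1.65) and Eef1a1 (1.64) lay above that quartile as well, and had 0.46 to 0.48 after quantile normalization. Actg1 and Eef1a1, detected in all 22 cells, are themselves among the 70, so their place above its quartile is no outside comparison.

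Cell adhesion molecules of axons had 1 member called higher and 2 lower among 18, with a median of -0.33. Cntn2, or TAG-1, a contactin of growing axons, was at 8.34, 7.64 and 7.64 in E4, F3 and F6 and at 9.22, 14.04 and 16.41 in B1, B5 and C7. B1 was below the detection level, so the difference of 5.35 rests on B5 and C7; the lowest value on leaving out 1 cell in turn was 3.76. Nfasc, neurofascin, was at 12.75, 13.21 and 12.77 and then at 11.41, 9.69 and 8.80, a difference of -2.94. Cntnap2, a neurexin family protein that partners contactins, was at 12.96, 12.93 and 12.46 and then at 11.26, 7.64 and 7.65, a difference of -3.93. The mean over its 3 probe sets was -1.78. L1cam was at 12.30, 12.25 and 13.94 and then at 8.88, 12.69 and 8.67, where B5 overlapped. Cdh2, N-cadherin, was at the floor in C7 alone.

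Of 31 compared axon guidance genes, none was called higher and 3 lower, against 1.52% and 5.53% of all compared genes. Their differences were positive for 5 and negative for 21, against 2549 and 4036 of all compared genes. The median was -0.995, or -1.52 after rescaling and 0.0 with no filter on dim genes. Between 13 and 16 members were detected in each E12.5 cell, and 11, 6 and 5 in B1, B5 and C7. Nrp1, the neuropilin that binds class 3 semaphorins and VEGF, was at 13.23, 13.12 and 13.05 at E12.5 and at 11.71, 7.64 and 12.04 at E15.5, a difference of -2.67. Without B5 this was -1.26, no longer a call, and the 4 probe sets ran from -2.67 to 2.85. Plxna3, a semaphorin receptor, was at 10.97, 12.92 and 11.93 and then at 10.85, 8.08 and 7.64, with B1 just below E4. Ptprd, a receptor tyrosine phosphatase, was at 13.67, 11.11 and 8.87 and then at the floor, a difference of -3.57 or beyond, which was -2.35 without E4.

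Sema6a, a transmembrane semaphorin, was at 13.20, 7.64 and 12.23 in E4, F3 and F6 and at the floor in every E15.5 cell. Epha5, an ephrin receptor, was at 11.11, 7.64 and 12.32 and then at the floor. These were undetected in F3, so neither was called. Plxna1 was at 12.64, 10.92 and 11.55 at E12.5 and at 11.35, 7.64 and 8.12 at E15.5. Dcc, the netrin receptor, chosen after its values were seen, was at 15.92 in C7 and undetected in the other 5 cells.

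Motors of axonal transport had 2 members called higher and 3 lower among 21, against 1.52% and 5.53% of all compared genes, and a median of -0.47. Kif3a, a subunit of kinesin-2, was at 7.64, 12.17 and 12.33 at E12.5 and at 14.41, 14.67 and 14.97 at E15.5, a difference of 3.97 with probe sets from -1.37 to 3.97. It was 2.44 without E4 and 0.38 as the mean over probe sets. Dynll2, a dynein light chain, was at 11.36, 13.13 and 11.91 and then at 13.39, 14.18 and 15.27, a difference of 2.14 and a rescaled one of 1.49, and no call without E4 (1.76) or C7 (1.65). Kif21b was at 12.79, 12.60 and 12.83 and then at the floor, a difference of -5.09 or beyond. Each of these separated the stages, and Kif21b did so with the tightest E12.5 values.

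Klc1, a kinesin light chain, was at 14.62, 14.83 and 14.58 at E12.5 and at 12.34, 13.02 and 7.76 at E15.5, a difference of -3.64, which was -2.001 without C7. Dync1h1, the heavy chain of dynein, was at 12.70, 11.67 and 14.03 and then at 8.69, 11.62 and 7.64, where B5 lay just below F3. Kif5a, a neuronal kinesin heavy chain, was at 14.14, 12.93 and 14.25 and then at 13.65, 7.69 and 7.64, and was not called because B1 overlapped.

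Synaptic vesicle and release genes had no call among 37 compared, with 13 positive and 22 negative differences and a median of -0.99. Detected members numbered 21, 24 and 29 in E4, F3 and F6 and 22, 21 and 9 in B1, B5 and C7, so C7 alone was low. Rims1, an active zone protein, was at 14.20, 7.64 and 12.12 at E12.5 and at most 7.65 at E15.5. Rims2 was at 7.64, 13.75 and 11.98 and then at the floor. Erc2, another active zone protein, was at 12.75, 13.05 and 11.28 and then at 12.12, 7.64 and 7.64. The 2 Rims genes were thus each in 2 E12.5 cells and in no E15.5 cell.

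Ion channel subunits had none called higher and 1 lower among 17, with a median of -1.40 and 13 negative differences. Kcnd3, a subunit of A-type potassium channels, was at 12.70, 11.82 and 13.39 in the E12.5 cells and at the floor in the E15.5 cells, a difference of -4.99 or beyond. The sodium channel genes Scn8a (13.10, 11.24 and 7.64) and Scn9a (7.64, 11.17 and 11.73) were each in 2 E12.5 cells and at the floor in all E15.5 cells. Detected members of this list numbered 9, 8 and 11 at E12.5 and 7, 5 and 1 at E15.5.

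Transmitter receptor subunits had 1 of 15 members called lower and none higher, with a median of 0.00. Gabbr1, a subunit of the GABA-B receptor, was at 13.49, 12.20 and 12.90 at E12.5 and at 7.64, 8.58 and 7.64 at E15.5, a difference of -4.91. Cnr1, the cannabinoid receptor, was at 13.42, 13.79 and 13.24 and then at 13.65, 7.64 and 7.64. Chrnb2, a nicotinic subunit, was at 12.94, 11.92 and 12.57 and then at 12.21, 7.64 and 7.64. For Cnr1 and Chrnb2, B1 kept an E12.5 level while B5 and C7 were at the floor. Kif5a and Erc2 had the same split of the E15.5 cells. The highest difference among the probe sets was 0.12 for Cnr1 and 0.95 for Chrnb2.

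Peptides and secreted signals had no call among 10, with a median of 0.70. Mdk, the growth factor midkine, was at 7.95, 8.35 and 7.64 at E12.5 and at 12.67, 7.64 and 15.46 at E15.5. Bmp7 was at 11.78, 12.07 and 7.64 and then at the floor. Mdk was thus present in B1 and C7 and not in B5, and Bmp7 in E4 and F3.

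Ribosomal protein genes had 1 of 24 members called higher and none lower, with 19 positive differences and a median of 1.03, near the 0.96 of the 70 reference genes and 0.38 after rescaling. Rpl7 was at 13.71, 14.97 and 14.41 and then at 16.19, 16.29 and 17.27, a difference of 2.22 and a rescaled one of 1.56, and no call without E4 (1.89) or C7 (1.87). Housekeeping genes had a median of 0.62, or 0.01 after rescaling, with 1 of 20 called in each direction. Actb was at 14.68, 15.07 and 14.47 and then at 16.11, 16.05 and 16.90, a difference of 1.61, or 0.48 after quantile normalization. Ywhaz, a 14-3-3 protein, had 2.06, or 1.40 after rescaling and 1.85 to 2.35 on leaving out 1 cell, below a call without E4, F6 or C7, and Uqcrc1, a subunit of respiratory complex III, had -3.71.

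Stress and immediate early genes had 2 of 13 members called lower and none higher, with a median of -0.24. Fos was at 12.29, 11.37 and 8.82 at E12.5 and at the floor in every E15.5 cell, a difference of -3.18 or beyond. Hspa5, an endoplasmic reticulum chaperone, was at 13.42, 14.42 and 13.31 and then at 13.14, 13.31 and 7.64, so its -2.35 rests on C7 and was -0.49 without it.

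**Figure D4:**
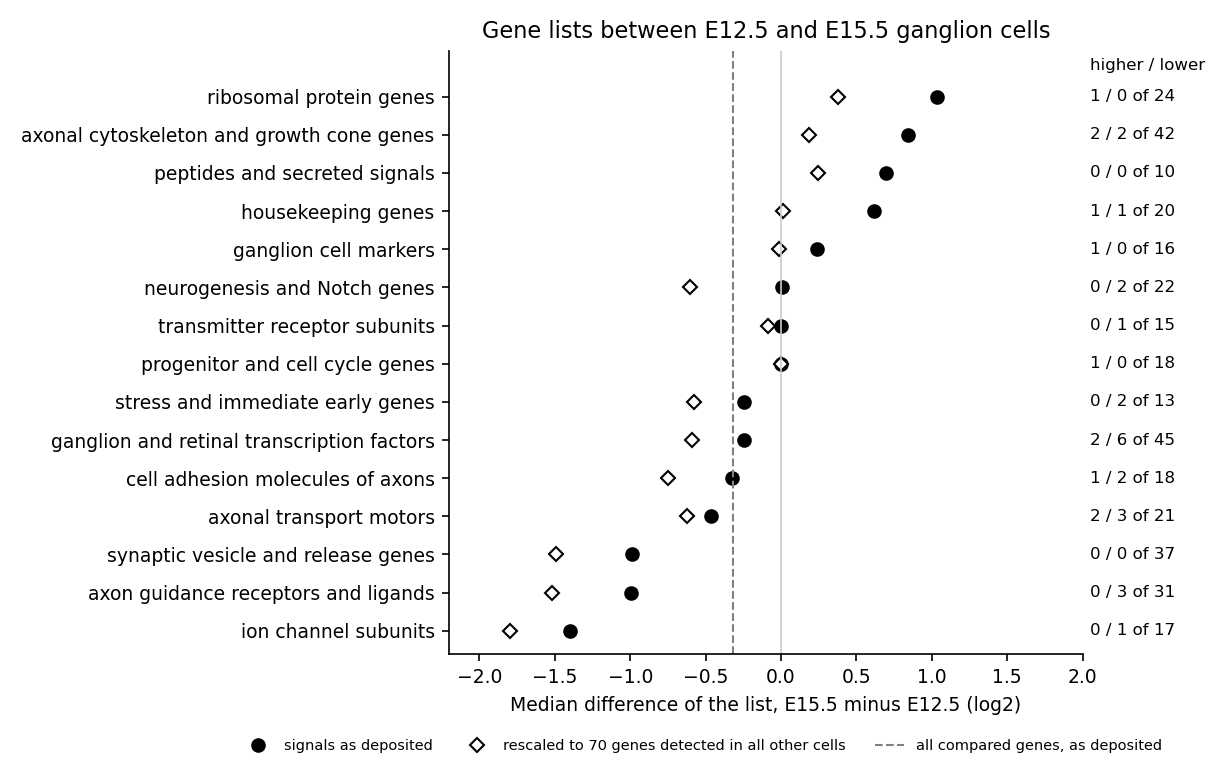
Median difference (log2, E15.5 minus E12.5) of each gene list with at least 10 compared members, for signals as deposited (filled circles) and after rescaling each cell to 70 genes detected in all other cells (open diamonds); the dashed line is the median of all compared genes (-0.32), and the numbers at the right count members called higher and lower. Ribosomal protein (1.03) and axonal cytoskeleton genes (0.84) lie highest and move toward 0 on rescaling, and ion channel (-1.40), axon guidance (-0.995) and synaptic genes (-0.99) lie lowest for both sets of points. Rescaling lowers most differences, so the downward move of the highest lists follows from it.

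Promoter sequence is shown for Cntn2, Slc18a2, Isl1 and Meis1, the called genes of axon adhesion, transmitter storage and homeodomain regulation that were higher at E15.5. Each stretch is the 150 bases before the RefSeq transcript start on the gene's strand, 5′ to 3′, build GRCm38.p6, in lower case with the E-box CANNTG, the site class of proneural factors, in capitals.
Cntn2: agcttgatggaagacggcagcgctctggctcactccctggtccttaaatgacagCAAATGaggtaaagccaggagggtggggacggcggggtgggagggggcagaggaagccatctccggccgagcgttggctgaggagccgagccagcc
Slc18a2: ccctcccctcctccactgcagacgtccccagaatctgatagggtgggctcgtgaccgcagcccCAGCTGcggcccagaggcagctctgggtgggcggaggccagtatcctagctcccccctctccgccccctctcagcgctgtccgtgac
Isl1: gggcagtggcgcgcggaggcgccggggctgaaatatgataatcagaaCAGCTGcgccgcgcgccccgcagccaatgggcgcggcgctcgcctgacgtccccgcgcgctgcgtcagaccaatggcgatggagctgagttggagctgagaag
Meis1: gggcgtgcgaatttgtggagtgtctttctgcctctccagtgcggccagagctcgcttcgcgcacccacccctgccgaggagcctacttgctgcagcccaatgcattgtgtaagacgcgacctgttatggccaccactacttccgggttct
These lie at chr1:132542941-132543090 on the minus strand, chr19:59260728-59260877 on the plus strand, chr13:116309689-116309838 on the minus strand and chr11:19018970-19019119 on the minus strand, in that order. The Slc18a2 and Isl1 stretches share the hexamer CAGCTG, Cntn2 holds CAAATG, and the Meis1 stretch has no match in these letters. Over the 250 bases before the start, CANNTG, which reads as CANNTG on both strands, was in 63.8% of 105 promoters of genes called higher, 52.9% of 456 of genes called lower and 55.7% of 7691 of all compared genes. The homeodomain core TAATTA, also the same on both strands, was in 2.86%, 2.85% and 2.25% of these promoters. All promoters of the table held CANNTG in 66.2% and TAATTA in 4.84%. These matches describe letters in a window and no binding was measured.

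The globin genes were set aside from the calls and gene list counts above, but not from the promoter shares or the numbers of detected genes per cell. Hbb-y among them had the largest difference of any gene. Hbb-y, an embryonic beta-globin, was at the floor in all E12.5 cells and at 17.05, 15.82 and 16.79 in B1, B5 and C7, a difference of at least 8.91. Hba-x, embryonic zeta-globin, was at the floor at E12.5 and at 13.76, 12.31 and 14.04 at E15.5. Hbb-b2, an adult beta-globin, was at the floor at E12.5 and at 13.22, 13.13 and 13.33 at E15.5. Hbb-y and Hba-x were also detected in both E14.5 ganglion cells and in none of the 17 cells outside E14.5 and E15.5. Hba-a2 was detected in all 22 cells, at 14.59 to 15.04 in the E12.5 cells, and its difference of 1.61 was like that of Actb.

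Of 21 red cell genes measured, 4, 5 and 4 were detected in B1, B5 and C7 and 1 in each E12.5 cell. The red cell genes Slc4a1, Gypc, Klf1, Gata1 and Alas2, chosen after their values were seen, were below the detection level in every E15.5 cell. B1 had an Alas2 signal of 582 and a Gypc signal of 400.4, and C7 a Gypc signal of 292, each above every E12.5 cell. The E14.5 cell E1, which also held the embryonic globins, had signals of 3179 for Alas2, 17520 for the haem synthesis gene Fech and 1214 for Gypc. Whether the globin transcripts came with blood RNA was not tested, and beta-globin paralogs can share probes.

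Amacrine and photoreceptor cell markers were sparse in all 6 cells, and glial and horizontal cell markers were less so. Of 17 amacrine cell genes measured, 0 or 1 was detected per cell: Barhl2 in E4 and Calb2 in B5 (13.25). The defining amacrine factors Tfap2a and Tfap2b were at the floor in all 6 cells. Of 29 photoreceptor genes, 1 or 2 were detected per cell, mostly Gnb1, which was in all 6 cells (13.93 to 15.64), with Otx2 at 10.79 in E4, Rom1 at 11.81 in F3 and Guca1a, chosen after its values were seen, at 11.60 in B5. Glial genes numbered 2 to 4 of 18 per cell, Vim (13.75 to 16.42) in all 6, with Glul above the detection level in F3, B1 and B5. Horizontal cell genes numbered 4, 3 and 1 of 11 at E12.5 and 3, 1 and 0 at E15.5. Of all 18193 genes, 2652, 3493 and 3608 were detected in E4, F3 and F6 and 2475, 2465 and 1517 in B1, B5 and C7. The horizontal cell share in E4, F3 and B1 and the glial share in F3 and B1 thus lay above that of all genes.

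No lens gene of 19 and no pigment epithelium gene of 15 was detected in any of the 6 cells, and of 27 vascular and immune genes 1 was detected, Col4a2 in F6 (12.06). Cryaa, the lens alpha-crystallin, was at the floor in all 6 cells but at 12.52 in the E13.5 cell and at 14.82 and 15.09 in the E14.5 cells. The intermediate stages thus held lens transcripts that neither end of the comparison held. None of the marker lists of other cell types had a called member apart from Isl1, which is also a bipolar cell gene, and the globins set aside above.

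The 3 ganglion cells of the days between took no part in the calls and were used to see whether the genes moved the same way from E13.5 (1 cell) to E14.5 (2 cells). Of the genes called higher that differed between these stages, 51 of 104 (49.0%, 95% Wilson interval 39.6% to 58.5%) were higher at E14.5, against 3648 of 6185 compared genes (59.0%). Of those called lower, 166 of 380 (43.7%, 38.8% to 48.7%) were lower at E14.5, against 2537 of 6185 (41.0%). The intervals cover counting over genes only, which are not independent. The share of the higher genes lay below that of all genes, and the interval of the lower genes covered the share of all genes. For the higher genes the size of the gap depended on the setting. It was 47.4% against 51.8% without E14.5 cell E1, 53.0% against 55.5% after quantile normalization and 43.9% against 56.0% after rescaling.

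Single genes differed in how they stood at the days between. Slc18a2 was at 8.15 in the E13.5 cell and at 12.07 and 12.41 in the E14.5 cells, between the E12.5 cells E4 and F3 and the E15.5 cells. The E12.5 cell F6 lay above all 3 cells of these days, so they were within the E12.5 range. Dctn6 was at 12.67 and then at 7.64 and 9.65, so that D8 was within the E15.5 range and E1 above it. In contrast, Enoph1 was at the floor in all 3 cells of these days, Isl1 was at 7.64 at E13.5 and at 11.56 and 13.06 at E14.5, and Cnih1 stayed at 13.52, 14.62 and 13.62.

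A line of log2 signal against embryonic day over the 4 stage means of E12.5 to E15.5 was fitted with limma, the only test across this step that rests on stages rather than cells. No gene passed at a Benjamini-Hochberg adjusted p of 0.05, and the smallest adjusted p was 0.9155. At an unadjusted p under 0.05, 94 genes had a positive and 210 a negative slope, and a gene-wise linear model without limma's shared variance gave 33 and 75 and likewise no adjusted call. Leaving out E14.5, which leaves 1 residual degree of freedom, 55 genes passed with a positive and 1 with a negative slope, with a smallest adjusted p of 0.0286.

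Values at birth (P0, 4 ganglion cells) stood beside the step as follows. Slc18a2 was at 14.58, 12.74, 7.65 and 13.08 in A3, C6, A6 and F1, so 3 of 4 newborn cells held it. Meis1 was at 7.64, 7.64, 9.73 and 12.28, detected in 1 of 4. Gpm6a was at 13.66, 13.81, 15.57 and 12.41, and Kcnd3 at 13.48, 12.57, 11.44 and 12.71, both near their E12.5 values. Cnih1 was at 12.78, 10.66, 13.95 and 12.99, and Cpsf6 at 13.43, 14.89, 13.19 and 13.18. Among these lower genes, the transcript was thus detected in all 4 newborn cells and all E12.5 cells. Others stood otherwise: Cox8a was at 8.31, 9.19, 7.64 and 11.18 in A3, C6, A6 and F1. Dctn6 and Cops5 were detected in A3, C6 and F1 but at the floor in A6. The share over all lower genes was not counted. Lmo1 and Numbl were detected in none of the newborn cells, with highest values of 7.93 and 9.40. Cells of E15.5 also enter any reading of these courses from E15.5 onward, so the P0 levels are given as values only.

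**Figure D5:**
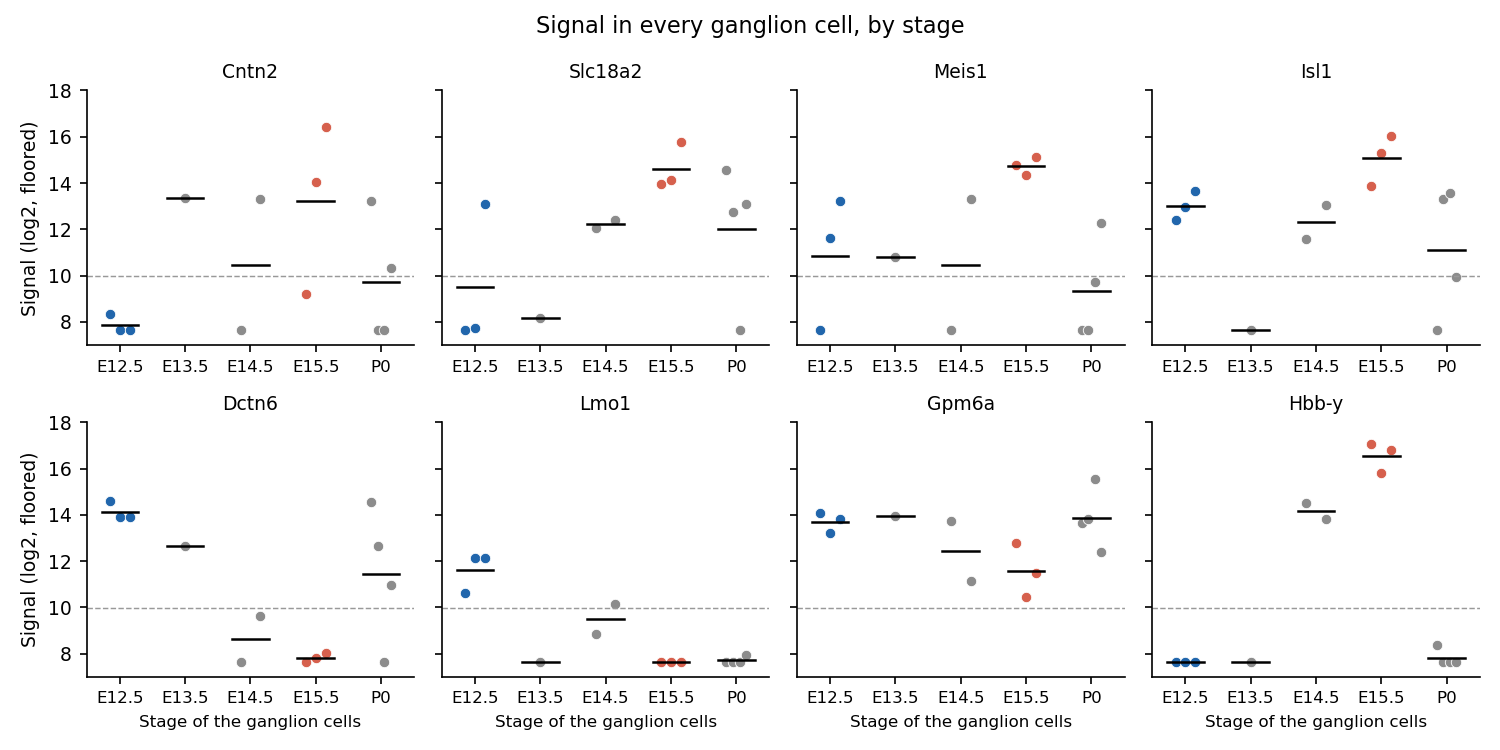
Log2 signal (floored) in each of the 13 ganglion cells by stage for 8 genes; bars are stage means, the dashed line is the detection level (9.97), and E12.5 and E15.5 cells are blue and red. Slc18a2 is detected in the E14.5 cells but also in the E12.5 cell F6, and Hbb-y is already up in the E14.5 cells. Isl1 and Meis1 dip or stay level between the ends, Gpm6a is at its E12.5 level again at P0, and Lmo1 is near the floor at E15.5 and P0.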

How the data were processed

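The deposited values are signal intensity on a linear scale, computed by the authors with MAS5, per the series' design text and the submitters' processing notes, and without detection calls. Signals were floored at 200, log2 transformed, and the probe set of highest mean over the 22 cells stood for a gene. Of 45101 probe sets, 34958 had 1 gene symbol, 932 several and 9211 none, and 64 were controls; 34754 were matched by gene number to RefSeq (GRCm38.p6), used for names and promoters. Genes were named by rule: the 12 largest calls per direction, all compared ganglion cell markers, called members of the other lists with up to 3 or 4 of largest difference, and transcription factors detected in part of a stage. Not all of these factors and list members are described above. Members, the 24 lists and the tests were chosen with earlier results of these data known. The slope was fitted with limma 3.58.1 (lmFit, eBayes with trend) in R 4.3.3 over 4 stage means, with 2 residual degrees of freedom. Calls and fit were run on simulated data to check the code. For the calls, the planted genes varied less between cells than many real genes, so this does not measure how reliable the calls are. Array P0 amacrine cell B1, with a trimmed mean of 18.1, was multiplied by 27.6. It bears on the detection filter, the choice of probe set for a gene, quantile normalization and the choice of the 70 genes. No array copied another: over 231 pairs Pearson's r reached at most 0.700. The number of arrays limits the precision. Alternatives were the floor, normalization, probe set rule, filter, averaging, size of difference and leaving out each cell; rescaling to 70 genes was added after seeing the data.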

Additional observations from a re-analysis of the deposited data

How the results depend on the processing

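The number of genes called higher, 109, was 173 after quantile normalization, 58 with the mean over probe sets, 61 after rescaling to 70 reference genes, 197 at a difference of at least 1, 34 at 4, and 122 to 366 on leaving out 1 cell. The number called lower, 397, was 256 with the mean over probe sets, 140 at a difference of at least 4, and 455 to 830 on leaving out 1 cell. The rise on leaving out 1 cell goes with a rule of no overlap that is easier to meet. Quantile normalization shared 86 of the higher and 302 of the lower calls. The median of all compared genes, -0.32, was -0.081 at a floor of 500, 0.0 without a filter or with medians over cells, -0.66 after rescaling, and -0.55 to 0.0 on leaving out 1 cell. The share of lower genes that were also lower from E13.5 to E14.5 was 48.9% at a difference of at least 4 and 41.5% to 49.7% on leaving out 1 cell, highest without cell E1 of E14.5, where the share of all compared genes was 48.2%. No gene passed the slope test under the alternatives run, except 55 and 1 without E14.5. Of 304 list medians under the alternatives, 42 moved. They ran from -0.02 to 1.18 for ribosomal protein genes and -0.17 to 1.14 for the axonal cytoskeleton, both below 0 after quantile normalization alone, from -1.89 to -0.14 for ion channels, -1.52 to 0.0 for axon guidance and -1.49 to 0.0 for synaptic genes. Dpysl3 reversed to -0.27 with the mean over probe sets. The causes of these changes were not tested. No paired analysis was possible because replicate numbers only name cells in accession order and pair none. A signal near the floor is not measured, which limits calls that rest on cells at the floor.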
